A study of Nannochloropsis oceanica with 15 samples.

Results

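The 71 genes described here carry annotations for the synthesis and use of isoprenoids, sterols and sphingolipids in Nannochloropsis oceanica strain IMET1, a unicellular marine alga that stores oil. They are the rows of the 10434-gene table whose KEGG pathway was steroid biosynthesis (20 genes), terpenoid backbone biosynthesis (27) or sphingolipid metabolism (14), or whose Swiss-Prot description contained sterol, squalene, ceramide or sphingo (26, of which 10 were found by these words alone). No measured value entered the rule, though it was set with earlier results of these data known. By annotation they were grouped as 26 isoprenoid, 26 sterol and 19 sphingolipid members. The sterol group includes triacylglycerol lipases that are there through their KEGG pathway only. Gene names below are homology annotations, mostly to Arabidopsis and other plants, and do not show function in this alga.

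RNA was sequenced at 0, 6, 12, 24 and 48 h after cells grown in f/2 medium under continuous light were washed and placed in f/2 medium that lacked phosphate, with 3 libraries (a, b and c) per time and 15 in all. All libraries bear the treatment label phosphate deprivation, the 0 h libraries included. A culture kept in complete medium is mentioned in the labels, but no library is labelled as one, so the time since transfer and the lack of phosphate cannot be told apart. Library totals lay between 16649421 and 26349336 counts. It is not stated for each library whether the 3 of a time came from separate cultures. The p-values therefore measure the spread between these libraries. Whether a letter marks the same culture across times is not stated either, and the letters were not treated as pairs.

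Isoprenoids are built from isopentenyl diphosphate, which algae and plants make in the plastid by the methylerythritol phosphate (MEP) pathway and, in many lineages, also from acetyl-CoA by the mevalonate pathway. Prenyl chains of growing length lead to the side chains of chlorophyll, tocopherol and quinones, to carotenoids, to protein prenyl groups and, by way of squalene, to sterols, which stiffen eukaryotic membranes. Sphingolipids start from serine and palmitoyl-CoA and are carried on a sphingoid base in place of glycerol. Sterols, steryl glucosides and glucosylceramides contain no phosphorus, whereas inositol phosphorylceramide does. Nannochloropsis species are known for cholesterol as a main sterol.

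Of the 71 members, 66 had enough counts to be tested, and 5 did not. Levels are given as CPM, for replicates a, b and c or as mean ± SD (n = 3). CPM are counts scaled to the library's total multiplied by its TMM factor, edgeR's scaling factor for each library. These factors lay between 0.945 (0 h replicate b) and 1.094 (6 h replicate b). Shares of counts use the totals without these factors. Levels of different genes are compared in FPKM, which also accounts for gene length. A difference is a log2 fold change ± SE from edgeR's quasi-likelihood fit of all 15 libraries. A gene is called at a Benjamini-Hochberg adjusted p under 0.05 over all 9321 tested genes. The comparisons with 0 h share the 0 h libraries and are therefore not independent of each other.

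Over the whole set, more members fell than rose at every later time. At 6 h 17 of the 66 were higher and 22 lower than at 0 h, where 24.7% and 25.7% of all tested genes were. At 12 h 18 were higher and 26 lower (32.1% and 32.7% of all tested genes). At 24 h the counts were 10 and 23 (25.2% and 20.8%), and at 48 h 13 and 24 (26.3% and 23.0%). As a share of the members tested, 59.1%, 66.7%, 50.0% and 56.1% were called in either direction at 6, 12, 24 and 48 h, beside 50.3%, 64.8%, 46.0% and 49.3% of all tested genes. These shares lie near the background, so the number of calls does not set the members apart. The median log2 fold change of the members was -0.05, -0.15, -0.22 and -0.07, that of all tested genes -0.03, -0.04, 0.03 and 0.01. The 10 risers at 24 h were the least firm of these counts: 5 were left without 0 h replicate a or 24 h replicate c, and 6 without 0 h replicate b, 6 h replicate a or b, 12 h replicate c or 24 h replicate a or b. The 13 risers at 48 h became 8 without 0 h replicate a or b.

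**Figure D1:**
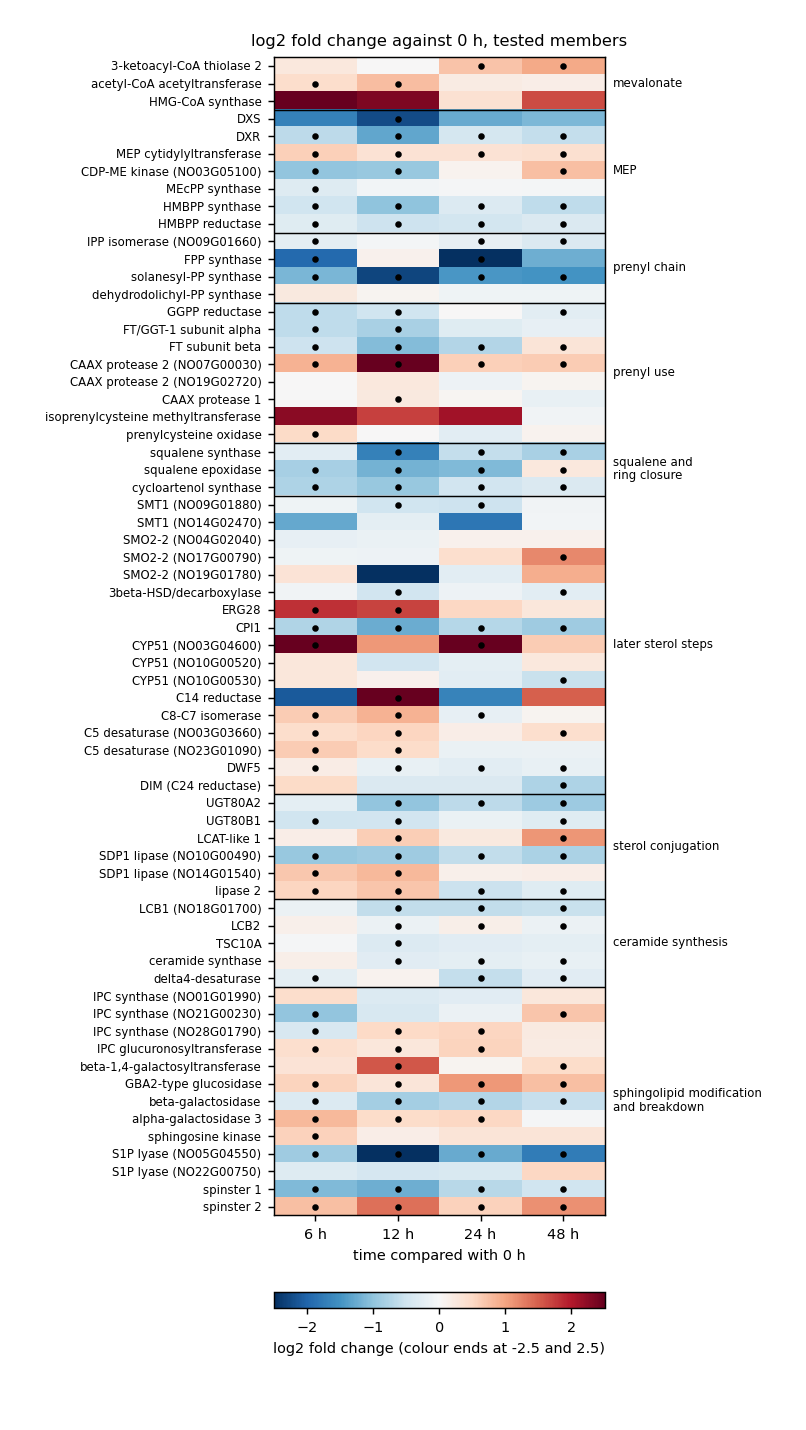
Log2 fold change against 0 h at 6, 12, 24 and 48 h (columns) for the 66 tested members (rows, grouped by role). Red is higher and blue lower than at 0 h, colours end at 2.5 in each direction, and a black dot marks an edgeR adjusted p under 0.05; DXR, both HMBPP enzymes, solanesyl-PP synthase and cycloartenol synthase are blue with dots at all 4 times, while strong colours without dots, as for HMG-CoA synthase, mark genes whose libraries lay far apart within a time.

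From one time to the next, 14 members rose and 22 fell between 6 and 12 h (23.5% and 23.3% of all tested genes, 46.8% in all). With upper-quartile scaling 7 rose and 26 fell, and the 14 risers were 8 without 6 h replicate b. Between 12 and 24 h 21 rose and 14 fell (27.2% and 26.6%, 53.7% in all). Between 24 and 48 h 11 rose and 7 fell (12.3% and 10.4%, 22.7% in all). Without 24 h replicate a, 7 rose, of which 5 were among these 11. Taken over the 4 comparisons with 0 h in a joint F-test, 57 of 66 members were called, beside 76.0% of all tested genes. The lowest of the 5 time means was that of 12 h in 23 members (34.8%, beside 30.0% of all tested genes), and the highest was that of 0 h in 22 members (33.3%, beside 29.2%).

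The share of a library's counts that went to all 71 members was lowest at 12 h. Replicates a, b and c had 1.42%, 1.44% and 1.44% (0 h), 1.20%, 1.10% and 1.26% (6 h), 1.04%, 0.998% and 0.945% (12 h), 1.25%, 1.23% and 1.19% (24 h) and 1.19%, 1.28% and 1.24% (48 h). The 26 isoprenoid members held 0.589 ± 0.0329% of counts at 12 h and 0.994 ± 0.00927% at 0 h. The 26 sterol members held 0.230 ± 0.0147% at 12 h, against 0.287 ± 0.00371% at 0 h. Their share was highest at 6 h (0.301 ± 0.00838%) and lowest at 24 h (0.222 ± 0.00498%). The 19 sphingolipid members held 0.175 ± 0.00568% at 12 h and 0.151 ± 0.00468% at 0 h, with the highest share at 6 h (0.183 ± 0.00263%). A share is a sum of counts, so abundant members weigh most. Spinster 2 (NO22G02180) alone went from 248 ± 53.6 CPM at 0 h to 640.4 ± 45.5 CPM at 12 h. Of the 18 sphingolipid members tested, 7 were lower and 6 higher at 12 h (32.7% and 32.1% of all tested genes). Their median log2 fold change was -0.22. Without geranylgeranyl diphosphate reductase, the most abundant member, the set held 0.726 ± 0.0331% at 12 h and 1.06 ± 0.00890% at 0 h. That set still holds the abundant MEP gene DXS (NO20G00420), with 1979 ± 13.0 CPM at 0 h and 422 ± 61.2 CPM at 12 h. Of the 22 isoprenoid members tested, 9 were lower and 4 higher at 12 h, beside the same 32.7% and 32.1%. Their median log2 fold change was -0.02, so the fall of the share does not describe a typical isoprenoid member. These shares are a description without a test, and fewer cells that express a gene cannot be told apart from less RNA per cell.

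**Figure D2:**
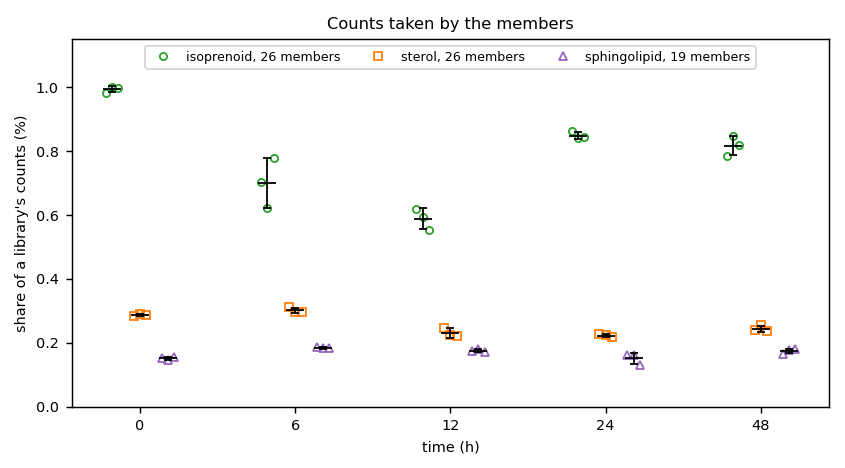
Share of each library's total counts, in percent, taken by the isoprenoid, sterol and sphingolipid members at each time (h). Symbols are libraries and bars the mean ± SD of 3; the isoprenoid share is lowest at 12 h (0.589 ± 0.0329%), and the shares of the other groups move less.

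Most tested genes of the MEP pathway, the plastid route to isoprenoids, were lower at 6 and 12 h, and 3 of 7 at 24 and at 48 h. Of its 8 members 7 were tested. At 12 h 5 were lower and 1 was higher than at 0 h, with a median log2 fold change of -0.94, where 32.7% and 32.1% of all tested genes were called. At 6 h the counts were 5 lower and 1 higher (25.7% and 24.7% of all tested genes), at 24 h 3 and 1 (20.8% and 25.2%), and at 48 h 3 and 2 (23.0% and 26.3%). Of the 5 lower at 12 h, 4 held in every fit without 1 library, and of those lower at 6, 24 and 48 h all did.

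DXS (1-deoxy-D-xylulose-5-phosphate synthase, NO20G00420), which opens the pathway and is often described as its main control point, stood at 1976, 1969 and 1994 CPM at 0 h and 976, 17.1 and 851 CPM at 6 h. It then had 488, 411 and 367 CPM (12 h), 860.2, 792 and 835 CPM (24 h) and 858, 953 and 902 CPM (48 h). All libraries of the later times lay below all 3 of 0 h, and 6 h replicate b, at 17.1 CPM, was far below its time's other libraries. DXS was called at 12 h (log2 fold change -2.23 ± 0.86, edgeR adjusted p = 0.038) and not at 6 h (-1.69 ± 0.84, edgeR adjusted p = 0.12), 24 h (-1.26 ± 0.83, edgeR adjusted p = 0.25) or 48 h (-1.13 ± 0.83, edgeR adjusted p = 0.29). The spread of 6 h enters the error of every comparison. Without 6 h replicate b, DXS was called at all 4 times: at 6 h (-1.13 ± 0.11, edgeR adjusted p = 1.2e-05), 12 h (-2.24 ± 0.10, edgeR adjusted p = 1.7e-08), 24 h (-1.28 ± 0.10, edgeR adjusted p = 2.7e-06) and 48 h (-1.14 ± 0.10, edgeR adjusted p = 5.6e-06). Leaving out any 1 library of 0 h or 12 h instead ended the call at 12 h (edgeR adjusted p = 0.064 to 0.098).

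DXR (1-deoxy-D-xylulose-5-phosphate reductoisomerase, NO17G02320), which makes methylerythritol phosphate itself, had 485, 482 and 474 CPM at 0 h and 304, 291 and 325 CPM at 6 h. Later it had 202, 195 and 194 CPM (12 h), 371, 333 and 363 CPM (24 h) and 289, 342 and 322 CPM (48 h). The libraries of each later time lay below those of 0 h, with the lowest at 12 h. It fell at 12 h (log2 fold change -1.29 ± 0.07, edgeR adjusted p = 1.1e-08). It rose again by 0.85 ± 0.07 between 12 and 24 h (edgeR adjusted p = 9.6e-07), and was still lower at 48 h than at 0 h (-0.60 ± 0.07, edgeR adjusted p = 1.7e-05).

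The genes of the pathway's closing steps fell too. HMBPP synthase (NO11G00330), an iron-sulfur enzyme that takes electrons from ferredoxin, had 346, 339 and 342 CPM at 12 h, against 701, 680.4 and 685 CPM at 0 h (log2 fold change -1.01 ± 0.05, edgeR adjusted p = 1.2e-08). It was also lower at 6 h (-0.50 ± 0.05), 24 h (-0.35 ± 0.05) and 48 h (-0.64 ± 0.05), all called. HMBPP reductase (NO07G03590), which releases the isopentenyl and dimethylallyl diphosphates, had 865, 731 and 726 CPM at 12 h, against 1079.8, 1108 and 1128 CPM at 0 h (log2 fold change -0.51 ± 0.07, edgeR adjusted p = 4.4e-05). Its libraries of 12 h did not overlap with those of 0 h.

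CDP-ME kinase (NO03G05100), which phosphorylates the pathway's cytidyl intermediate, took a course of its own. It had 766, 779 and 776 CPM at 0 h and 294, 317 and 558 CPM at 6 h. Its later levels were 437, 402 and 371 CPM (12 h), 796, 804 and 859 CPM (24 h) and 1228, 1377 and 1314 CPM (48 h). The libraries of 6 and 12 h lay below those of 0 h, and those of 48 h lay above all others. It fell at 6 h (log2 fold change -0.99 ± 0.19, edgeR adjusted p = 8.3e-04) and 12 h (-0.94 ± 0.19, edgeR adjusted p = 7.9e-04). It was not called at 24 h (0.08 ± 0.19, edgeR adjusted p = 0.76) and rose above it at 48 h (0.76 ± 0.19, edgeR adjusted p = 0.0053). Among the 7 tested MEP members it had the highest FPKM at 48 h (504 ± 42.9 FPKM). Replicate c of 6 h lay above the other libraries of that time, and without it the 6 h value was -1.35 ± 0.08, edgeR adjusted p = 1.9e-07.

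MEP cytidylyl transferase (NO15G01810), which adds the cytidyl group, was the riser at 6 h, with 73.2, 65.7 and 55.6 CPM at 6 h, against 40.2, 38.6 and 50.1 CPM at 0 h (log2 fold change 0.59 ± 0.14, edgeR adjusted p = 0.0038). Its calls at 12, 24 and 48 h (log2 fold changes of 0.37 ± 0.14, 0.37 ± 0.14 and 0.41 ± 0.14) ended when 0 h replicate a or b, among others, was left out (edgeR adjusted p = 0.094 to 0.16 without 1 of these). The 12 h call also ended without 12 h replicate a (edgeR adjusted p = 0.079) or b (edgeR adjusted p = 0.085). The 24 h call was the least firm. It also ended without any library of 12 h or 24 h, 6 h replicate a or b, or 48 h replicate c (edgeR adjusted p = 0.057 to 0.11). The 48 h value was 0.25 without 48 h replicate b (edgeR adjusted p = 0.14). MEcPP synthase (NO26G01380), which closes the pathway's cyclic diphosphate, was lower at 6 h (log2 fold change -0.32 ± 0.07, edgeR adjusted p = 0.0016) and was not called at 12 h (-0.07 ± 0.07, edgeR adjusted p = 0.35).

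**Figure D3:**
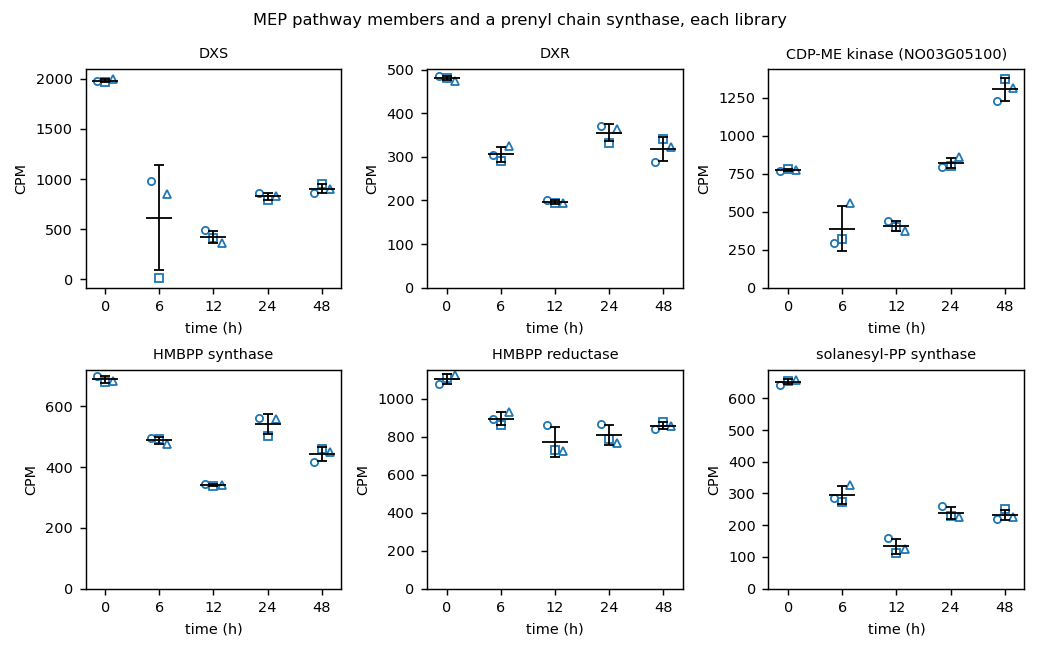
CPM in each library (circles, squares and triangles for replicates a, b and c) with mean ± SD of 3 (black) at each time in h, for 5 MEP pathway members and solanesyl diphosphate synthase, on linear axes. DXR, HMBPP synthase and solanesyl diphosphate synthase are lowest at 12 h, CDP-ME kinase is highest at 48 h, and DXS has 1 library of 6 h at 17.1 CPM.

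Of the mevalonate route, the rule found members at its opening steps only. None of the 71 is annotated as HMG-CoA reductase or mevalonate kinase, and those steps are not analysed here. Cytosolic acetyl-CoA acetyltransferase (NO02G05300), which joins acetyl-CoA units, had 64.6, 80.9 and 80.7 CPM at 12 h, against 48.4, 39.6 and 43.9 CPM at 0 h (log2 fold change 0.78 ± 0.10, edgeR adjusted p = 2.8e-05). It was also higher at 6 h (0.43 ± 0.10, edgeR adjusted p = 0.0038) and was not called at 24 h (0.21 ± 0.10, edgeR adjusted p = 0.12) or 48 h (0.17 ± 0.10, edgeR adjusted p = 0.2). The peroxisomal 3-ketoacyl-CoA thiolase 2 (NO01G04640), which KEGG lists under terpenoid backbone synthesis but which is best known from fatty acid breakdown, rose later. It had 231, 199 and 219 CPM at 48 h, against 122, 106 and 109.6 CPM at 0 h (log2 fold change 0.94 ± 0.12, edgeR adjusted p = 4.4e-05). It was not called at 12 h (0.01 ± 0.12, edgeR adjusted p = 0.95).

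HMG-CoA synthase (NO08G03590), which makes the precursor of mevalonate, was split between libraries of the same time. Its counts for replicates a, b and c were 1, 688 and 8 (0 h), 599, 3474 and 2242 (6 h), 2, 1402 and 1512 (12 h), 1, 5 and 988 (24 h) and 39, 1199 and 891 (48 h). At 0, 12 and 24 h, libraries with under 10 counts stood beside others of the same time with 688 or more. No comparison with 0 h was called (log2 fold change 3.12 ± 2.36 at 6 h, edgeR adjusted p = 0.3), and no direction is given for it. Why libraries of a time differed was not tested.

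Among the 6 members that lengthen prenyl chains, the counts were very uneven. At 0 h solanesyl diphosphate synthase (NO06G01510) had 159 ± 1.01 FPKM and isopentenyl diphosphate isomerase (NO09G01660) 52.6 ± 1.98 FPKM. The genes annotated as farnesyl diphosphate synthase (NO22G01230) and geranylgeranyl diphosphate synthase (NO04G03790), the enzymes at the branch points to sterols and carotenoids, had 0.489 ± 0.114 and 0.190 ± 0.0294 FPKM. Geranylgeranyl diphosphate synthase had 5 to 8 counts in a library and was not tested. Farnesyl diphosphate synthase had 2 to 20 counts. Its calls at 6 h (log2 fold change -1.95 ± 0.72, edgeR adjusted p = 0.04) and 24 h (-2.74 ± 0.76, edgeR adjusted p = 0.011) rest on these few counts. The 6 h call ended when any library of 0 h or 6 h was left out (edgeR adjusted p = 0.057 to 0.11), and when 12 h replicate c or any library of 24 h was (edgeR adjusted p = 0.05 to 0.053). At 48 h it was not called (-1.22 ± 0.70, edgeR adjusted p = 0.17), but without 48 h replicate a it was (-2.89 ± 0.56, edgeR adjusted p = 0.0017).

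Solanesyl diphosphate synthase, which builds the long side chain of plastoquinone or ubiquinone in plants, had the steepest called fall of the isoprenoid members with a mean of at least 10 CPM over the 15 libraries. It had 643, 656 and 658 CPM at 0 h and 285, 272 and 327 CPM at 6 h. Further on, it had 159, 113 and 126 CPM (12 h), 259, 229 and 227 CPM (24 h) and 219, 252 and 226 CPM (48 h). The libraries of every later time lay below those of 0 h, and those of 12 h were lowest. It fell at 6 h (log2 fold change -1.15 ± 0.12, edgeR adjusted p = 6.1e-06) and further at 12 h (-2.30 ± 0.12, edgeR adjusted p = 1.2e-08). It rose by 0.84 ± 0.12 between 12 and 24 h (edgeR adjusted p = 7.0e-05) and stayed lower at 48 h than at 0 h (-1.49 ± 0.12, edgeR adjusted p = 1.6e-06).

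The isomerase NO09G01660, which interconverts the C5 units, was lower at 48 h, with 179.6, 183 and 174 CPM at 48 h, against 219.7, 234 and 239.7 CPM at 0 h (log2 fold change -0.37 ± 0.07, edgeR adjusted p = 7.6e-04). It was not called at 12 h (-0.05 ± 0.07, edgeR adjusted p = 0.56). Dehydrodolichyl diphosphate synthase (NO11G02970), which makes the lipid carrier of protein glycosylation, had 26.7 ± 3.81 CPM at 12 h and 25.6 ± 0.570 CPM at 0 h and was not called at 12 h (0.06 ± 0.10, edgeR adjusted p = 0.63). At 6 h it had 30.5 ± 1.31 CPM and was not called (0.25 ± 0.10, edgeR adjusted p = 0.055), though it was without 12 h replicate a (edgeR adjusted p = 0.037) or b (edgeR adjusted p = 0.027) or 48 h replicate b (edgeR adjusted p = 0.049).

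Several annotations were carried by 2 genes with consecutive numbers, of which 1 took nearly all counts. For CDP-ME kinase, NO03G05100 had 5242 to 28562 counts in a library and NO03G05110 had 0 to 6. For the isomerase, NO09G01660 had 3057 to 6008 counts and NO09G01670 had 0 to 4. For the LCB1 subunit of serine palmitoyltransferase, NO18G01700 had 819 to 2169 counts and NO18G01710 had 0 to 5. How reads were divided between such neighbours is not given in the sources used here, so the values of these genes are uncertain to that degree. The fifth untested member, a phytol kinase (NO13G00270), had 0 or 1 count in every library.

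Members that use prenyl groups moved apart. Geranylgeranyl diphosphate reductase (NO10G02590), which makes the phytyl tail of chlorophyll and tocopherol, was the most abundant member, with 1142 ± 22.4 FPKM at 0 h. It had 3816, 3992 and 3832 CPM at 0 h and 2429, 2397 and 2701 CPM at 6 h. The later libraries had 2835, 2777 and 2608 CPM (12 h), 4034, 3759 and 3953 CPM (24 h) and 3301, 3114 and 3321 CPM (48 h). It was lower at 6 h (log2 fold change -0.63 ± 0.06, edgeR adjusted p = 2.7e-06) and 12 h (-0.50 ± 0.06, edgeR adjusted p = 9.2e-06), and at 24 h its libraries overlapped with those of 0 h (0.01 ± 0.06, edgeR adjusted p = 0.88). At 48 h it was lower again (-0.26 ± 0.06, edgeR adjusted p = 0.0029).

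The enzymes that attach and trim prenyl groups on proteins also differed. Protein farnesyltransferase subunit beta (NO06G00620) had 98.0, 95.3 and 102 CPM at 0 h and 67.0, 71.1 and 69.8 CPM at 6 h. Its values then were 43.4, 45.9 and 49.2 CPM (12 h), 56.6, 53.4 and 67.4 CPM (24 h) and 125, 122 and 121 CPM (48 h). It fell at 12 h (log2 fold change -1.09 ± 0.08, edgeR adjusted p = 1.6e-07) and was above its 0 h level at 48 h (0.32 ± 0.08, edgeR adjusted p = 0.0056). The alpha subunit shared with geranylgeranyl transferase (NO01G00480) fell at 12 h (-0.81 ± 0.14, edgeR adjusted p = 2.5e-04) and was not called at 48 h (-0.20 ± 0.14, edgeR adjusted p = 0.25).

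CAAX prenyl protease 2 (NO07G00030), which clips the end of prenylated proteins, rose to 57.0, 106 and 82.3 CPM at 12 h, against 11.6, 14.6 and 12.4 CPM at 0 h (log2 fold change 2.67 ± 0.22, edgeR adjusted p = 4.5e-07). At 24 h it had 20.8, 17.6 and 19.5 CPM, a fall by 2.08 ± 0.22 on the log2 scale from 12 h (edgeR adjusted p = 7.0e-06). It was still above 0 h at 24 h (0.59 ± 0.21, edgeR adjusted p = 0.038), a call that ended in 8 of the 15 fits without 1 library (edgeR adjusted p = 0.05 to 0.11), and at 48 h (0.63 ± 0.21, edgeR adjusted p = 0.025), a call that ended without 0 h replicate a or c or 48 h replicate c (edgeR adjusted p = 0.07 to 0.11). The other gene with that annotation (NO19G02720) was called at none of the 4 times and averaged 111 ± 13.8 CPM at 12 h and 92.6 ± 4.93 CPM at 0 h (0.26 ± 0.17, edgeR adjusted p = 0.19). CAAX prenyl protease 1 (NO08G02990) differed at 12 h by 0.24 ± 0.08, a call that ended without 0 h replicate a (edgeR adjusted p = 0.074), 0 h replicate c (edgeR adjusted p = 0.052) or 12 h replicate a (log2 fold change 0.14, edgeR adjusted p = 0.11). Prenylcysteine oxidase (NO05G03710), which breaks down spent prenylated proteins, was higher at 6 h, with 22.3, 20.9 and 23.2 CPM at 6 h, against 13.5, 19.1 and 14.8 CPM at 0 h (log2 fold change 0.48 ± 0.13, edgeR adjusted p = 0.0081), and was called at no other time against 0 h. Isoprenylcysteine methyltransferase (NO03G04390), which caps them, had 3 to 93 counts in a library and was not called at 6 h (2.26 ± 1.00, edgeR adjusted p = 0.081). Without 0 h replicate c, the library of 0 h with the most counts, it was higher at 6 h (edgeR adjusted p = 0.016), 12 h (edgeR adjusted p = 0.023) and 24 h (edgeR adjusted p = 0.022), and without 48 h replicate a at 6 h (edgeR adjusted p = 0.035).

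The 3 enzymes that make squalene, oxidise it and close it to a sterol ring system were all lower at 12 h and at 24 h than at 0 h (32.7% and 20.8% of all tested genes were), with a median log2 fold change of -1.19 at 12 h. Squalene synthase (NO06G02830), which joins a pair of farnesyl units and commits them to sterols, had 227, 217 and 230.2 CPM at 0 h and 208, 195 and 159 CPM at 6 h. It later reached 84.0, 61.0 and 65.0 CPM (12 h), 159, 144 and 141 CPM (24 h) and 115, 139 and 129.7 CPM (48 h). It was not called at 6 h (log2 fold change -0.26 ± 0.13, edgeR adjusted p = 0.11), though it was without 12 h replicate a (edgeR adjusted p = 0.04). It fell at 12 h (-1.68 ± 0.13, edgeR adjusted p = 2.6e-07). The libraries of 24 and 48 h lay between those of 12 h and those of 0 h.

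Squalene epoxidase (NO01G00760), the oxygen-dependent step that follows and a known control point of sterol synthesis in other eukaryotes, had 273, 279 and 275 CPM at 0 h and 155, 147 and 163 CPM at 6 h. It then had 137, 108 and 119 CPM (12 h), 126, 114 and 147 CPM (24 h) and 349, 316 and 327 CPM (48 h). It was low at 6, 12 and 24 h and high at 48 h, when it exceeded 24 h by 1.36 ± 0.10 (edgeR adjusted p = 3.6e-06). Against 0 h it fell at 12 h (log2 fold change -1.19 ± 0.10, edgeR adjusted p = 5.9e-07) and at 24 h (-1.10 ± 0.10, edgeR adjusted p = 4.5e-06). Its libraries of 48 h all lay above those of 0 h (0.26 ± 0.10, edgeR adjusted p = 0.046). That call ended in 10 of the 15 fits that left out 1 library, any of 0 h and any of 48 h among them (edgeR adjusted p up to 0.14).

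Cycloartenol synthase (NO12G00440), which folds squalene epoxide into the plant-type sterol skeleton, had 182, 209.9 and 217 CPM at 12 h, against 402, 386 and 382 CPM at 0 h (log2 fold change -0.94 ± 0.07, edgeR adjusted p = 2.2e-07). It was also lower at 6 h (-0.77 ± 0.07, edgeR adjusted p = 2.7e-06), 24 h (-0.48 ± 0.07, edgeR adjusted p = 1.8e-04) and 48 h (-0.37 ± 0.07, edgeR adjusted p = 0.001). At each of these times its libraries did not overlap with those of 0 h.

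**Figure D4:**
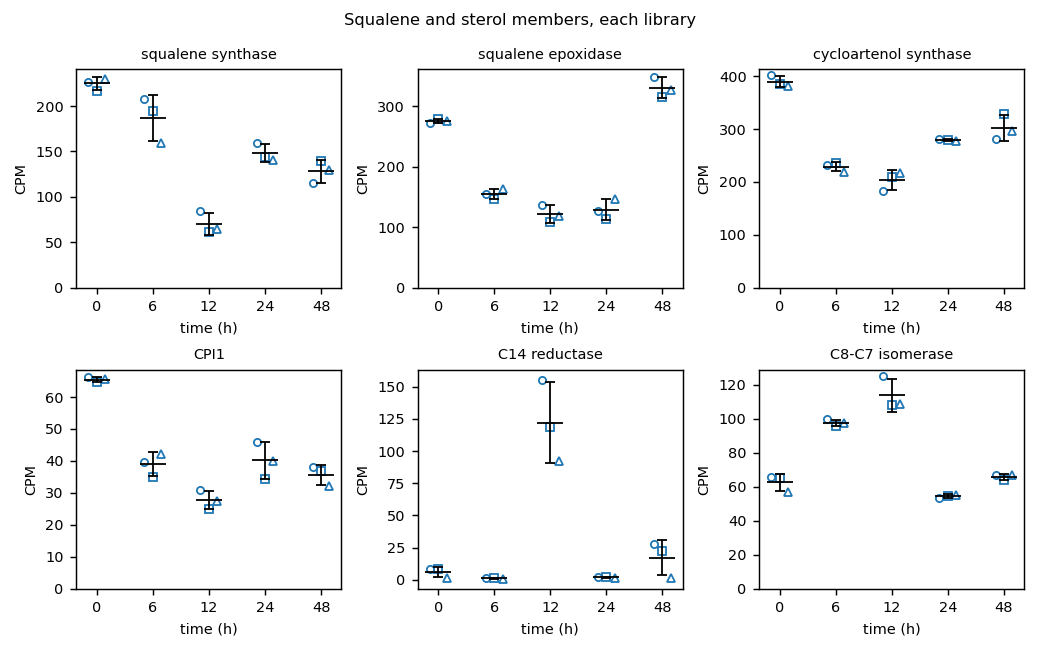
CPM in each library (circles, squares and triangles for replicates a, b and c) with mean ± SD of 3 (black) at each time in h, for 6 squalene and sterol members, on linear axes. Squalene synthase, squalene epoxidase, cycloartenol synthase and CPI1 are lowest at 12 h, whereas the C14 reductase and the C8-C7 isomerase are highest then; squalene epoxidase is back at 331 ± 16.7 CPM at 48 h.

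The 17 members of the later sterol steps held both risers and fallers. At 12 h 5 rose and 4 fell, and 8 were not called, with a median log2 fold change of -0.16 (32.1% of all tested genes rose and 32.7% fell). At 6 h 6 rose and 1 fell (24.7% and 25.7% of all tested genes), at 24 h 1 and 4 (25.2% and 20.8%), and at 48 h 2 and 5 (26.3% and 23.0%). Of these calls 5 and 3 at 12 h held in every fit without 1 library, and none of the rises at 24 h did. At 48 h 1 rise and 2 falls held in every such fit. Of the 5 falls, 3 were kept without any 1 library of 0 h and without 48 h replicate c. Without 0 h replicate a, another member was called lower in addition. Of the 2 rises, 1 was kept without any 1 library of 0 h, 24 h replicate a or 48 h replicate a or c. Without 0 h replicate c or 48 h replicate c, another member was called higher in addition.

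Among the fallers was cycloeucalenol cycloisomerase CPI1 (NO23G00450), which opens the cyclopropane ring of plant-type sterols. It had 66.2, 64.6 and 65.6 CPM at 0 h and 39.7, 34.8 and 42.1 CPM at 6 h. Later it had 30.8, 25.0 and 27.4 CPM (12 h), 46.0, 34.4 and 40.0 CPM (24 h) and 38.0, 36.7 and 32.0 CPM (48 h). All libraries of later times lay below those of 0 h, and it fell by 1.24 ± 0.12 on the log2 scale at 12 h (edgeR adjusted p = 1.6e-06) and by 0.88 ± 0.12 at 48 h (edgeR adjusted p = 6.6e-05). Sterol methyltransferase SMT1 (NO09G01880), which adds the side chain methyl group at C-24, had the highest FPKM of the sterol members at 0 h (164 ± 4.12 FPKM). It had 330.1, 266 and 289 CPM at 12 h, against 405, 429.7 and 409.8 CPM at 0 h (log2 fold change -0.49 ± 0.07, edgeR adjusted p = 6.0e-05). At 48 h it was not called (-0.09 ± 0.07, edgeR adjusted p = 0.33). A second gene of that annotation (NO14G02470) had 1 to 21 counts in a library and was not called at any time (-0.25 ± 1.23, edgeR adjusted p = 0.87 at 12 h). The 3beta-hydroxysteroid dehydrogenase/decarboxylase (NO07G02900), which works in C-4 demethylation, fell at 12 h (-0.48 ± 0.08, edgeR adjusted p = 1.4e-04).

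Among the risers was the C8-C7 sterol isomerase (NO23G01450), which shifts a ring double bond. It had 65.7, 65.4 and 56.9 CPM at 0 h and 99.6, 95.6 and 97.4 CPM at 6 h. Its later levels were 125, 108 and 109 CPM (12 h), 53.4, 54.4 and 55.4 CPM (24 h) and 66.7, 64.0 and 66.8 CPM (48 h). It rose at 6 h (log2 fold change 0.64 ± 0.07, edgeR adjusted p = 1.0e-05) and 12 h (0.87 ± 0.07, edgeR adjusted p = 3.7e-07). It fell by 1.07 ± 0.07 on the log2 scale between 12 and 24 h (edgeR adjusted p = 3.3e-07), and was not called at 48 h (0.07 ± 0.07, edgeR adjusted p = 0.43). Both genes annotated as the C5 desaturase, the step after it, rose at 6 h (log2 fold changes 0.44 ± 0.08 and 0.63 ± 0.14) and at 12 h. NO03G03660 had 107, 102 and 112 CPM at 12 h, against 69.2, 73.0 and 78.9 CPM at 0 h (log2 fold change 0.54 ± 0.08, edgeR adjusted p = 5.3e-05). NO23G01090 had 19.4, 21.1 and 21.2 CPM at 12 h, against 11.5, 17.6 and 15.8 CPM at 0 h (log2 fold change 0.46 ± 0.14, edgeR adjusted p = 0.01), or 0.30 without 0 h replicate a. Only without that library was it called lower at 24 h (-0.32, edgeR adjusted p = 0.027) and at 48 h (-0.29, edgeR adjusted p = 0.036).

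The gene annotated as C14 reductase (NO07G01540), whose Swiss-Prot match is the sterol reductase FACKEL and whose other database match is a lamin B receptor, was high at 12 h. It had 8.40, 8.62 and 1.22 CPM at 0 h and 1.62, 1.70 and 0.976 CPM at 6 h. Further on, it had 155, 119 and 92.1 CPM (12 h), 2.02, 2.23 and 1.46 CPM (24 h) and 27.7, 22.3 and 1.53 CPM (48 h). The libraries of 12 h lay far above all others, those of 6 and 24 h were at or below 2.23 CPM, and at 0 and 48 h replicate c was below a and b. It rose at 12 h (log2 fold change 4.33 ± 0.91, edgeR adjusted p = 0.0012) and fell by 6.00 ± 1.00 on the log2 scale between 12 and 24 h (edgeR adjusted p = 2.9e-04). At 48 h it was not called (1.50 ± 0.82, edgeR adjusted p = 0.15), but without 48 h replicate c it was (2.05 ± 0.59, edgeR adjusted p = 0.016). Without that library it was also called lower at 6 h (-2.09 ± 0.58, edgeR adjusted p = 0.012) and at 24 h (-1.67 ± 0.57, edgeR adjusted p = 0.034), and so was 6 h without 0 h replicate c (edgeR adjusted p = 0.023).

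Of 3 genes annotated as the C14 demethylase CYP51, a widely conserved sterol enzyme, NO10G00530 was the most abundant (140.3 ± 9.12 FPKM at 0 h). It was not called at 12 h (log2 fold change 0.10 ± 0.18, edgeR adjusted p = 0.67). It was lower at 48 h, with 59.7, 55.2 and 33.6 CPM at 48 h, against 72.7, 68.5 and 77.7 CPM at 0 h (-0.56 ± 0.18, edgeR adjusted p = 0.024). That call ended without 0 h replicate a (edgeR adjusted p = 0.052) or c (edgeR adjusted p = 0.072) or 48 h replicate c (-0.35, edgeR adjusted p = 0.055). NO10G00520, whose number adjoins it, was not called against 0 h at any time, with 20.9 ± 3.73 CPM at 12 h and 29.0 ± 2.26 CPM at 0 h (-0.47 ± 0.34, edgeR adjusted p = 0.24). At 48 h NO10G00520 had 25.2, 23.1 and 55.5 CPM, so its replicate c was high where that of NO10G00530 was low. How reads were divided between these neighbours is not given and was not tested. NO03G04600 had 1 to 56 counts in a library. Its calls at 6 h (3.52 ± 1.23, edgeR adjusted p = 0.031) and 24 h (3.68 ± 1.22, edgeR adjusted p = 0.028) ended without any library of 0 h (edgeR adjusted p = 0.058 to 0.096). The 6 h call also ended without 6 h replicate b (2.65 ± 1.26, edgeR adjusted p = 0.11), and the 24 h call without 24 h replicate c (0.52 ± 0.82, edgeR adjusted p = 0.7).

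The C-4 demethylation oxidases annotated SMO2-2 gave few calls. NO04G02040 averaged 24.7 ± 2.43 CPM at 12 h and 27.6 ± 2.07 CPM at 0 h and was called at none of the 4 times (-0.16 ± 0.09, edgeR adjusted p = 0.14 at 12 h). Without 12 h replicate a it was called at 6 h (edgeR adjusted p = 0.044) and 12 h (edgeR adjusted p = 0.028), and without 0 h replicate b at 6 h (edgeR adjusted p = 0.041). NO17G00790 had 8 to 47 counts, and its call at 48 h (1.20 ± 0.44, edgeR adjusted p = 0.037) ended in 6 of 15 fits without 1 library, any of 0 h among them (edgeR adjusted p = 0.051 to 0.11). NO19G01780 had 1, 1 and 435 counts at 0 h and no call with all libraries (-0.26 ± 1.75, edgeR adjusted p = 0.93 at 24 h). Without 0 h replicate c the 24 h value was 6.42 ± 2.15, edgeR adjusted p = 0.035, with calls at 6 h (edgeR adjusted p = 0.022) and 48 h (edgeR adjusted p = 0.017) too. These calls rest on a baseline of 1 count in each of 0 h replicates a and b, and no direction is given for NO19G01780. ERG28 (NO04G03210), a scaffold of this step in yeast, had 4.90, 5.35 and 5.93 CPM at 12 h, against 1.05, 1.35 and 2.61 CPM at 0 h (log2 fold change 1.68 ± 0.34, edgeR adjusted p = 8.7e-04). It was higher at 6 h too (1.82 ± 0.34, edgeR adjusted p = 7.7e-04).

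The reductases that finish cholesterol-type sterols had small or unsteady differences. 7-dehydrocholesterol reductase DWF5 (NO21G01450) was lower at 24 h, with 134, 136 and 135 CPM at 24 h, against 162, 164 and 160.4 CPM at 0 h (log2 fold change -0.26 ± 0.07, edgeR adjusted p = 0.0061). Its calls at 6 h (0.18 ± 0.07, edgeR adjusted p = 0.034), 12 h (-0.18 ± 0.07, edgeR adjusted p = 0.029) and 48 h (-0.18 ± 0.07, edgeR adjusted p = 0.037) each ended in 5 of the 15 fits without 1 library, any of 0 h among them (edgeR adjusted p = 0.05 to 0.15). The C24 reductase DIM (NO25G00840), which saturates the side chain, had 233, 291 and 221 CPM at 0 h and 372, 304 and 356 CPM at 6 h. The later libraries had 217, 174 and 188 CPM (12 h), 222, 192 and 162 CPM (24 h) and 170.0, 177 and 90.2 CPM (48 h). It was lower at 48 h than at 0 h (log2 fold change -0.77 ± 0.22, edgeR adjusted p = 0.013), a call that ended without 0 h replicate b (edgeR adjusted p = 0.054). At 6 h and 12 h it was called only without 48 h replicate c (edgeR adjusted p = 0.017 and 0.042).

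Sterol conjugation and related lipases were split as well. At 12 h 3 of 6 rose and 3 fell, beside 32.1% and 32.7% of all tested genes. The steryl glucosyltransferases, which add glucose to sterols, were lower. UGT80A2 (NO03G03260) had 182, 156 and 144 CPM at 12 h, against 306, 314 and 329 CPM at 0 h (log2 fold change -0.98 ± 0.12, edgeR adjusted p = 1.2e-05). It was lower at 48 h too (-0.90 ± 0.12, edgeR adjusted p = 5.4e-05). UGT80B1 (NO13G01910) had 52.1, 48.2 and 51.5 CPM at 12 h, against 67.8, 73.5 and 69.7 CPM at 0 h (log2 fold change -0.47 ± 0.07, edgeR adjusted p = 4.7e-05). Neither gene's libraries of 12 h overlapped with those of 0 h.

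The 3 triacylglycerol lipases are there through KEGG's steroid pathway, and SDP1 is known in Arabidopsis as a triacylglycerol lipase. The pair annotated SDP1 moved in opposite directions at 12 h. NO10G00490 fell, with 142, 131 and 119 CPM at 12 h, against 239.9, 244 and 238 CPM at 0 h (log2 fold change -0.88 ± 0.07, edgeR adjusted p = 2.3e-07). NO14G01540 rose, with 201, 262 and 223 CPM at 12 h, against 121, 138 and 129 CPM at 0 h (log2 fold change 0.82 ± 0.11, edgeR adjusted p = 3.5e-05). Triacylglycerol lipase 2 (NO20G00510) rose at 12 h (0.70 ± 0.09, edgeR adjusted p = 2.9e-05) and fell below its 0 h level at 24 h (-0.54 ± 0.09, edgeR adjusted p = 5.1e-04). The lecithin-cholesterol acyltransferase-like gene (NO18G01100), whose other match is a phospholipase A2, had 48.1, 35.4 and 44.8 CPM at 48 h, against 20.7, 21.9 and 16.7 CPM at 0 h (log2 fold change 1.11 ± 0.12, edgeR adjusted p = 1.6e-05). It was higher at 12 h as well (0.62 ± 0.12, edgeR adjusted p = 6.6e-04).

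Genes of ceramide synthesis had small differences. Of 5 tested members 4 were lower at 12 h and none was higher (32.7% and 32.1% of all tested genes), with a median log2 fold change of -0.29. Of these calls 2 held in every fit without 1 library, and 2 were made without 12 h replicate b or c. The LCB1 subunit of serine palmitoyltransferase (NO18G01700), which with LCB2 makes the sphingoid base, had 61.9, 47.1 and 62.8 CPM at 12 h, against 77.2, 95.3 and 91.1 CPM at 0 h (log2 fold change -0.62 ± 0.14, edgeR adjusted p = 0.0022). It was lower at 24 h (-0.62 ± 0.14) and 48 h (-0.55 ± 0.14) too. The LCB2 subunit (NO13G01220) had 76.8, 76.9 and 82.2 CPM at 0 h and 87.7, 88.9 and 79.7 CPM at 6 h. Its values then were 73.4, 71.4 and 68.7 CPM (12 h), 86.0, 89.3 and 85.7 CPM (24 h) and 72.9, 72.0 and 68.6 CPM (48 h). Its calls at 12, 24 and 48 h (-0.14 ± 0.06, 0.15 ± 0.06 and -0.14 ± 0.06, edgeR adjusted p = 0.038, 0.048 and 0.048) ended in 3, 14 and 10 of the 15 fits without 1 library. These include 0 h replicate c at 12 h (edgeR adjusted p = 0.14) and 48 h (edgeR adjusted p = 0.17), and 0 h replicates a and b at 24 h (edgeR adjusted p = 0.13 each).

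Further along, 3-dehydrosphinganine reductase TSC10A (NO28G00390) had 37.5, 29.9 and 29.5 CPM at 12 h, against 42.1, 44.1 and 36.9 CPM at 0 h (log2 fold change -0.34 ± 0.13, edgeR adjusted p = 0.03). That call ended without 0 h replicate a (edgeR adjusted p = 0.076) or b (edgeR adjusted p = 0.099) or 12 h replicate b or c (edgeR adjusted p = 0.1 each). Replicate a of 12 h lay above replicate c of 0 h, so the groups overlapped. Ceramide synthase (NO25G00910), which attaches the fatty acid, had 120.1, 106 and 108 CPM at 12 h, against 135, 141 and 132 CPM at 0 h (log2 fold change -0.29 ± 0.06, edgeR adjusted p = 0.0017). A gene outside the rule with the same Swiss-Prot match, NO09G03700, was at 88.1 ± 12.2 CPM at 12 h, against 264 ± 13.3 CPM at 0 h (log2 fold change -1.58 ± 0.14, edgeR adjusted p = 8.0e-07). The delta-4 desaturase (NO02G05780), which puts a double bond into the sphingoid base, had 62.3, 56.5 and 62.1 CPM at 24 h, against 86.8, 92.7 and 95.3 CPM at 0 h (log2 fold change -0.60 ± 0.06, edgeR adjusted p = 1.4e-05). It was not called at 12 h (0.08 ± 0.06, edgeR adjusted p = 0.33).

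Sphingolipid modification and breakdown held both risers and fallers. Of 13 members 6 rose and 3 fell at 12 h (32.1% and 32.7% of all tested genes), and 5 rose and 5 fell at 6 h (24.7% and 25.7%). Of the rises 3 at 12 h and 5 at 6 h held in every fit without 1 library, and of the falls 3 and 4. Sphingosine-1-phosphate lyase (NO05G04550), the exit from the pathway that cleaves the phosphorylated base, had 167, 171 and 169 CPM at 0 h and 91.5, 99.3 and 85.3 CPM at 6 h. It later reached 35.0, 28.5 and 24.7 CPM (12 h), 78.9, 67.6 and 64.4 CPM (24 h) and 45.8, 54.0 and 50.4 CPM (48 h). All libraries of later times lay below those of 0 h, and those of 12 h were lowest. It fell at 6 h (log2 fold change -0.88 ± 0.12, edgeR adjusted p = 6.7e-05) and 12 h (-2.52 ± 0.13, edgeR adjusted p = 8.6e-09). It rose between 12 and 24 h (1.26 ± 0.12, edgeR adjusted p = 4.2e-06) and stayed lower at 48 h than at 0 h (-1.75 ± 0.12, edgeR adjusted p = 6.6e-07). The second gene of that annotation (NO22G00750) was not called at 12 h (-0.42 ± 0.23, edgeR adjusted p = 0.13) or at 48 h (0.52 ± 0.23, edgeR adjusted p = 0.088). Without 48 h replicate a it was at 48 h (edgeR adjusted p = 0.025).

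Sphingosine kinase (NO04G03140), which makes the lyase's substrate, was higher at 6 h (log2 fold change 0.58 ± 0.15, edgeR adjusted p = 0.008) and was not called at 12 h (0.17 ± 0.15, edgeR adjusted p = 0.37). Of the spinster genes, whose animal relatives export sphingosine 1-phosphate, spinster 2 (NO22G02180) had 244, 304 and 197 CPM at 0 h and 394, 396 and 475 CPM at 6 h. It then had 588, 673 and 660.2 CPM (12 h), 472, 390.5 and 252 CPM (24 h) and 512, 532 and 593 CPM (48 h). It rose at 12 h (log2 fold change 1.37 ± 0.21, edgeR adjusted p = 8.9e-05) and 48 h (1.14 ± 0.21, edgeR adjusted p = 6.6e-04). Its call at 24 h (0.58 ± 0.20, edgeR adjusted p = 0.035) ended in 8 of the 15 fits without 1 library, 24 h replicate a (0.37, edgeR adjusted p = 0.16) and 0 h replicate c (edgeR adjusted p = 0.13) among them. Its libraries of 24 h overlapped with those of 0 h. Spinster 1 (NO14G01810) fell, with 9.75, 9.61 and 8.31 CPM at 12 h, against 22.0, 20.6 and 21.9 CPM at 0 h (log2 fold change -1.22 ± 0.13, edgeR adjusted p = 5.2e-06).

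Enzymes that add or remove sugars were found among risers and fallers. The beta-1,4-galactosyltransferase (NO19G00320), annotated by KEGG as an enzyme known from lactosylceramide synthesis in animals, had 181, 182 and 238 CPM at 12 h, against 66.4, 62.8 and 75.8 CPM at 0 h (log2 fold change 1.55 ± 0.16, edgeR adjusted p = 3.0e-06). It fell by 1.49 ± 0.16 on the log2 scale between 12 and 24 h (edgeR adjusted p = 8.9e-06). A GBA2-type glucosidase (NO03G03630), which removes glucose from glucosylceramide in animals, had 106, 116 and 124 CPM at 24 h, against 55.5, 52.7 and 54.3 CPM at 0 h (log2 fold change 1.09 ± 0.08, edgeR adjusted p = 6.6e-07). It was higher at 48 h too (0.75 ± 0.08, edgeR adjusted p = 9.4e-06). Beta-galactosidase (NO12G02700) fell at 12 h (-0.85 ± 0.06, edgeR adjusted p = 1.9e-07), and alpha-galactosidase 3 (NO06G02910) rose at 6 h (0.82 ± 0.15, edgeR adjusted p = 6.7e-04).

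Inositol phosphorylceramide (IPC) synthase, which moves phosphoinositol onto ceramide, is the annotation of 3 members, and 2 of them also match a heat shock protein. NO01G01990 had 139.8, 12.8 and 175 CPM at 0 h and 169, 145 and 129.7 CPM at 6 h. Later it had 132, 123 and 4.44 CPM (12 h), 126, 125 and 18.6 CPM (24 h) and 144, 118 and 136 CPM (48 h). Replicate b of 0 h and replicate c of 12 and 24 h lay at 18.6 CPM or below, all others at 118 CPM or above, and no call was made at any time (-0.34 ± 1.04, edgeR adjusted p = 0.8 at 12 h). NO28G01790 was lower at 6 h (-0.41 ± 0.15), a call that ended in 6 of the 15 fits without 1 library (edgeR adjusted p = 0.05 to 0.12). It rose at 12 h (log2 fold change 0.49 ± 0.15, edgeR adjusted p = 0.012), when its libraries overlapped with those of 0 h, and at 24 h (0.53 ± 0.15, edgeR adjusted p = 0.012). The first call ended without 12 h replicate b (edgeR adjusted p = 0.062) and the second without 24 h replicate c (edgeR adjusted p = 0.051). NO21G00230 was lower at 6 h (-0.98 ± 0.22, edgeR adjusted p = 0.0025) and higher at 48 h, with 38.7, 50.6 and 40.1 CPM at 48 h, against 35.2, 22.5 and 22.3 CPM at 0 h (0.69 ± 0.22, edgeR adjusted p = 0.019). The rise ended without 0 h replicate b or c or 48 h replicate b (log2 fold changes 0.56 to 0.59, edgeR adjusted p = 0.073 to 0.075). The IPC glucuronosyltransferase (NO04G02660), which adds the next sugar in plants, was higher at 24 h, with 30.9, 34.9 and 34.5 CPM at 24 h, against 22.2, 23.4 and 22.5 CPM at 0 h (log2 fold change 0.56 ± 0.09, edgeR adjusted p = 2.1e-04).

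**Figure D5:**
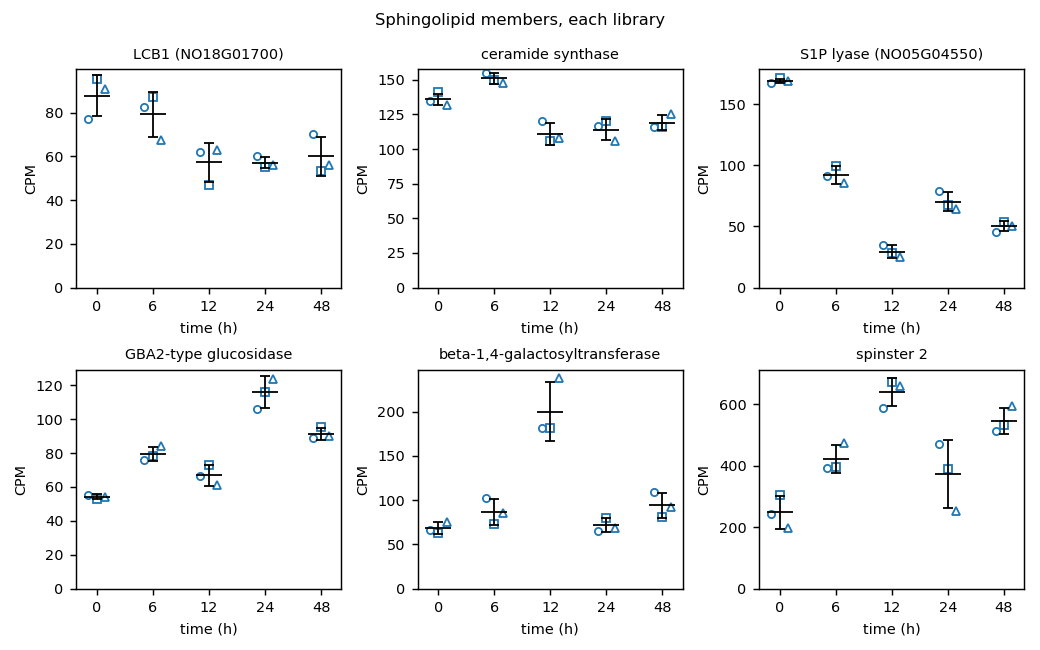
CPM in each library (circles, squares and triangles for replicates a, b and c) with mean ± SD of 3 (black) at each time in h, for 6 sphingolipid members, on linear axes. The lyase NO05G04550 is lowest and the beta-1,4-galactosyltransferase and spinster 2 are highest at 12 h, the glucosidase is highest at 24 h, and the LCB1 subunit and ceramide synthase vary less.

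Genes outside the rule that share these pathways were counted from lists matched to all annotation columns or to KEGG pathways. Of 15 tested genes of KEGG carotenoid biosynthesis, which draws on geranylgeranyl diphosphate, 11 were lower and 2 higher at 12 h (median log2 fold change -0.93), and 8 lower and 3 higher at 48 h. Of all tested genes 32.7% were lower and 32.1% higher at 12 h, and 23.0% and 26.3% at 48 h. The carotenoid genes include phytoene synthase (NO20G01840), which makes the first carotenoid, with 119 ± 6.04 CPM at 12 h, against 504 ± 12.6 CPM at 0 h (log2 fold change -2.08 ± 0.13, edgeR adjusted p = 3.6e-08). Of 9 tested genes of ubiquinone and terpenoid-quinone synthesis, 7 were lower and 1 higher at 12 h (median -0.54). Of 41 tested genes matched to prenyl or dolichol words, 14 were lower and 18 higher at 12 h (median 0.26). The lists overlap, with 7 of the prenyl genes and 5 of the quinone genes also found in another list.

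Of 66 tested genes matched to sterol or steroid words outside the rule, 26 were lower and 21 higher at 12 h (median -0.17). At that time 32.7% of all tested genes were lower and 32.1% higher. But 58 of the list's 69 genes have dehydrogenase, short-chain or cytochrome b5 in their annotation. The list also holds a pair annotated as C8-C7 isomerase, like the member NO23G01450. The more abundant of the pair, NO07G03850, was at 229 ± 21.3 CPM at 12 h, against 468 ± 43.6 CPM at 0 h (log2 fold change -1.03 ± 0.13, edgeR adjusted p = 2.3e-05), whereas NO23G01450 rose then. Of 11 sphingolipid genes outside the rule, 5 were lower and 4 higher at 12 h (median -0.25), beside the same 32.7% and 32.1%. The gene of the ORMDL family (NO02G03060), whose relatives hold back serine palmitoyltransferase in yeast and animals, had 121 ± 11.2 CPM at 12 h and 117 ± 6.40 CPM at 0 h and was not called (log2 fold change 0.05 ± 0.08, edgeR adjusted p = 0.64).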

How the data were processed

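Paired-end RNA sequencing of total RNA gave 15 libraries. Reads were aligned with HISAT2, per the submitters' processing notes. For the counter, genome build and annotation, nothing is stated in the sources used here. For each gene the deposited table lists, per the file headers, 1 count and 1 FPKM column per library. The deposited count columns hold whole numbers and are read here as estimated counts: when 315 low counts (2 to 5) were rebuilt from FPKM, 91.1% fell less than 1 below the listed count and 14.0% were whole within 0.05. FPKM was computed by the authors and is used here only to compare levels between genes. Strand handling and the treatment of reads shared by similar genes are unknown, so paralogs and neighbours with the same annotation are uncertain.

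Counts were tested with edgeR 4.0.16 in R 4.3.3 (filterByExpr by time, TMM scaling, quasi-likelihood fit with 5 time means, Benjamini-Hochberg adjustment over 9321 genes). Scaled to library totals without the TMM factors, a count of 3 is worth 0.114 to 0.18 CPM. This floor covers counting error only. DESeq2 1.42.0, other scalings and filters, a letter block, the 6 libraries of a comparison alone and leaving out each library were alternatives. Same-letter libraries of different times did not deviate together: over 30 pairs the correlation was -0.088 to 0.077, with 0 above 0.1, so letters are not treated as pairs. Genes were named by role. Library values are given at all times or only at the times compared. They were planned for the steps that open or commit a branch and for the largest called changes. For the latter the guide was a mean of at least 10 CPM and up to 6 genes per role. Some members beyond this guide have library values too, such as ERG28 with a mean of 3.49 CPM. The genes outside the rule were chosen by annotation after their values were seen. Members and lists were chosen with earlier results of these data known. Scripts were tested on simulated data. Figures used matplotlib 3.10.9.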

Additional observations from a re-analysis of the deposited data

How the results depend on the processing

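The counts of all members called higher or lower stayed within 1.5 times the reported count under all alternatives run, except for 4 counts of risers. Some smaller counts within a role moved by more than this when 1 library was left out, and with only the 6 libraries compared the 4 ceramide members lower at 12 h were 2 and the 5 later sterol members lower at 48 h were 3. At 24 h against 0 h the 10 risers became 6 without a filter on low counts, 6 with the replicate block on the letters, and 5 to 10 when 1 library was left out. At 48 h against 0 h the 13 risers became 8 to 13 when 1 library was left out. At 12 h against 6 h the 14 risers became 7 with upper-quartile scaling, 8 with only the 6 libraries compared, and 8 to 14 when 1 library was left out. At 48 h against 24 h 7 to 12 members rose in place of 11 when 1 library was left out. The causes were not tested; fewer libraries also leave less to estimate the spread from. Of 242 calls of single members over the 7 comparisons between times, the replicate block lost 19 and gained 1, DESeq2 lost 2 and gained 16, DESeq2 size factors lost 5 and gained 4, and upper-quartile scaling lost 14 and gained 6. With only the 6 libraries compared, 32 of 238 were lost and 16 gained. Among 3630 tests of these calls without 1 library, 264 were lost and no sign turned, and 81 calls were gained elsewhere. Of 220 fold changes not called, 66 turned sign in some fit without 1 library, and 1 of these fits gave a call: SMO2-2 (NO19G01780) at 24 h against 0 h was 6.42 on the log2 scale without 0 h replicate c, against -0.26 with all libraries, and its other fits reached down to -0.84. Depth limits the genes with few counts, farnesyl and geranylgeranyl diphosphate synthase, NO03G04600 and NO14G02470 among them.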
